A study of Homo sapiens with 54 samples.

Results

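The mRNAs of the 3 fibrinogen chains were followed in HepG2, a human liver cancer line whose cells the labels call liver cancer stem cells. FGA, FGB and FGG encode the Aα, Bβ and γ chains. They are 3 of the 50037 gene entries of the series, each with a single entry under its symbol, and all 3 were among the 11280 genes tested. HepG2 cells were given complete medium alone (NC), 50 ng/mL of IL-10, 50 ng/mL of IL-6, 100 ng/mL of TNF-α or 1 µM of Torin1, and the treated cells were taken after 3 h or 6 h. This gave 9 groups of 3 libraries, 27 of the 54 libraries of the series. The other 27 came from HCT116, a colon cancer line given the same treatments, and served only as a check for carried-over signal. The labels give no hour for NC and name only medium as the control, so 2 references were used: NC, and IL-10 of the same hour, which is matched in time but is itself a treatment.

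Fibrinogen is made in hepatocytes, assembled in the endoplasmic reticulum from paired copies of each chain, secreted into plasma and cut by thrombin into fibrin, the fibre of the clot. It is an acute phase protein. IL-6 binds IL6R and the shared signalling receptor IL6ST (gp130), and the JAK kinases bound to that receptor then phosphorylate the transcription factor STAT3, which acts with C/EBP and HNF1 factors at liver promoters. TNF-α signals through NF-kB, IL-10 is an anti-inflammatory cytokine that signals through IL10RA and IL10RB, and Torin1 inhibits the kinase mTOR.

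The genes lie side by side on chromosome 4, within 49.7 kb on GRCh38.p14. FGB (Entrez 2244) spans 154562980 to 154572807 on the plus strand, FGA (Entrez 2243) 154583126 to 154590742 on the minus strand and FGG (Entrez 2266) 154604136 to 154612656 on the minus strand. The 250 bases before each start are shown because the chains responded to the same treatment and CTGGGA, the core of the IL-6 response element known from acute phase genes, lies in all of them. They are from RefSeq (GRCh38.p14), written 5′ to 3′ along the gene, with CTGGGA on either strand in capitals (TCCCAG where it lies on the opposite strand). For FGB the start farther upstream was taken.
FGA, chr4:154590743-154590992, minus strand: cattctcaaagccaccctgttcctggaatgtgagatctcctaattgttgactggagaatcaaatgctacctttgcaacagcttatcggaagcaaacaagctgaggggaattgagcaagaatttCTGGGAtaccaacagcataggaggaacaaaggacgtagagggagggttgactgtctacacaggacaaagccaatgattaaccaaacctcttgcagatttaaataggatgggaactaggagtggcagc
FGB, chr4:154562730-154562979, plus strand: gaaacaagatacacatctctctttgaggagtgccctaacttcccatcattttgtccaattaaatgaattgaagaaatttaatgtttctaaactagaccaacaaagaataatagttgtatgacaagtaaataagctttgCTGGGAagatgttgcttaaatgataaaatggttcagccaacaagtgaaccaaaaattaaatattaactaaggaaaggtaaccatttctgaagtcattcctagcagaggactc
FGG, chr4:154612657-154612906, minus strand: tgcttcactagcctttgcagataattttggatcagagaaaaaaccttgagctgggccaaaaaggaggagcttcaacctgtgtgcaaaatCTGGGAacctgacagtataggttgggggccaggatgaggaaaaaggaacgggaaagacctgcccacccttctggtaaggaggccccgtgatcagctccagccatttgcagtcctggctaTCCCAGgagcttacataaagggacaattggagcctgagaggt
CTGGGA began 127 bases before the start of FGA, 112 before that of FGB and 161 before that of FGG, on the strand of the gene each time. FGG held a further copy on the opposite strand, 42 to 37 bases before its start. The longer form CTGGGAA overlapped this core in FGB and FGG and was not in the FGA window. On either strand, CTGGGA was in 28.7% of the 34943 promoter windows of the same length, and CTGGGAA in 9.16%. The C/EBP-type motif TTGCNNAA (9.06% of windows) was on the opposite strand in the FGA window, from base 141 to 134 before the start (printed as TTGAGCAA). In the FGB window it was on the strand of the gene, from 101 to 94. GTTAAT, part of the HNF1 site (6.24% of windows), lay on the opposite strand of FGA and FGB. Its printed form ATTAAC began 52 bases before the start of FGA and 51 before that of FGB. The spaced palindrome TTCNNNGAA (6.56% of windows) was in FGA alone, from base 231 to 223. These matches are letters in a window and were not tested as binding sites.

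HepG2 libraries held 46.3 to 93.7 M reads on genes, recovered from the deposited values, and replicates of every group differed by more than counting noise (chi-square per degree of freedom 7.72 to 30.7). The IL-6 3 h replicate 3 library stood apart from its group, with the largest deviation of the 27 (root mean square 0.151 log2, the others 0.116 to 0.131). Each test of the chains on IL-6 3 h is therefore given with and without it. Gene lists, other genes and shares of genes called are given only with it. The liver identity of the cells was checked. Of 12 hepatocyte markers, 11 were at 1 FPKM or more in all 27 libraries, albumin (7396 to 9064 FPKM) among them. The deposited values of the remaining marker, APOB, were near 0 (0.0692 to 0.238 FPKM), and the reason was not tested. Of 6 blood markers, PTPRC was listed at 0 while LYZ (1129.5 to 1675 FPKM) and CD68 (24.2 to 35.6 FPKM) were high. Of 8 colon markers, CDX1, KRT20, MUC2 and GPA33 were listed at 0 while VIL1 and LGR5 were expressed. The platelet genes PF4, PPBP and GP9, of a list of 6, were listed at 0. Of 5 fibroblast markers none passed 0.0274 FPKM, and of 4 endothelial markers PECAM1 was highest (0.266 to 0.619 FPKM).

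All chains were abundant in untreated HepG2. Levels are FPKM, fragments per kilobase of gene model scaled to library size, and are given in the order of replicates 1, 2 and 3. In NC, FGA stood at 579, 577 and 583 FPKM, FGB at 244, 239 and 241 FPKM and FGG at 733, 729 and 739 FPKM. The NC libraries lay close together for each chain. In NC, 44352 to 78349 reads lay on FGB, the least counted chain, and 114100 to 201999 on FGA. Over all 27 HepG2 libraries these ranges were 38461 to 135513 and 85356 to 312201. In all 27 libraries FGG was the highest and FGB the lowest chain, with FGG 1.23 to 1.41 times FGA and FGB 0.389 to 0.529 times FGA. The order of FGG and FGA rests on gene length: the deposited values fit lengths of 3917 bases for FGA, 3672 for FGB and 2107 for FGG. With the length of a single annotated transcript, the NC level became 1009.8 (FGA-202) or 617 (FGA-201) for FGA, 449 (FGB-201) for FGB and 932 (FGG-201) or 878 (FGG-203) for FGG. FGB was lowest with each of these lengths.

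The highest group of every chain was IL-6 6 h and the lowest TNF-α 6 h, a span of 1.38 log2 for FGA, 1.45 for FGB and 1.49 for FGG. For FGA, the group means ran from IL-6 6 h (1231 ± 37.7 FPKM, SD, n = 3) and IL-6 3 h (1177 ± 89.5) down to Torin1 3 h (678 ± 27.9), TNF-α 3 h (645 ± 12.9), IL-10 3 h (640.5 ± 7.22), Torin1 6 h (625 ± 29), IL-10 6 h (581 ± 3.03), NC (579.5 ± 3.48) and TNF-α 6 h (474 ± 18.7). Libraries of the neighbouring groups overlapped between IL-6 6 h and 3 h, from Torin1 3 h down to Torin1 6 h, and between IL-10 6 h and NC. FGB ran from IL-6 6 h (633 ± 25.7) and IL-6 3 h (575 ± 21.5) to Torin1 3 h (276 ± 8.97), Torin1 6 h (274 ± 13.7), TNF-α 3 h (265 ± 11.3), IL-10 3 h (259 ± 9.49), IL-10 6 h (251 ± 4.71), NC (241 ± 2.37) and TNF-α 6 h (231 ± 6.98). From Torin1 3 h to IL-10 6 h each FGB group overlapped the next, and the other neighbours were apart. FGG ran from IL-6 6 h (1709 ± 75.0) and IL-6 3 h (1559 ± 84.4), which overlapped, to Torin1 3 h (881 ± 28.7), Torin1 6 h (846 ± 43.9), IL-10 3 h (835 ± 18.1), TNF-α 3 h (811 ± 9.16), IL-10 6 h (778 ± 20.1), NC (733 ± 4.87) and TNF-α 6 h (606 ± 20.2). From Torin1 3 h to TNF-α 3 h each FGG group overlapped the next, and below it the groups were apart. The 3 chains together took 0.440% to 0.448% of the gene reads in NC, 0.974% to 1.04% in IL-6 6 h and 0.370% to 0.386% in TNF-α 6 h.

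**Figure D1:**
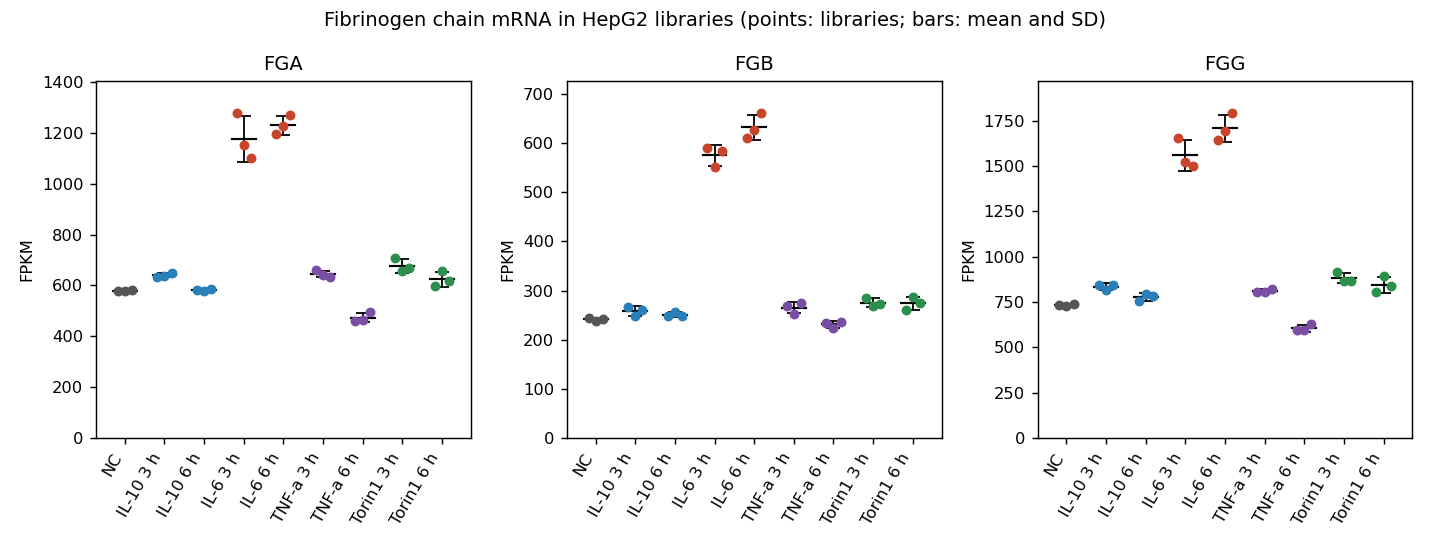
Level of each chain (FPKM, axis from 0) in the 27 HepG2 libraries; points are libraries, bars the mean and SD of 3. Both IL-6 groups lie above all others for each chain (FGA 1103 to 1277 FPKM), and TNF-α 6 h lies lowest (FGA 461 to 495 FPKM).

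IL-6 raised all 3 chains at both hours, FGB by the most. FGA stood at 1277, 1152 and 1103 FPKM after 3 h of IL-6 and at 1195, 1228 and 1269.7 FPKM after 6 h, against 635, 638 and 649 FPKM and 582, 578 and 584 FPKM in IL-10 at those hours. FGB, the chain whose synthesis is often held to limit assembly, stood at 591, 551 and 583 FPKM after 3 h and at 609.9, 628 and 661 FPKM after 6 h, against 267, 248 and 259.9 FPKM and 249, 257 and 248 FPKM in IL-10. FGG stood at 1656, 1521 and 1499.9 FPKM and then at 1642, 1695 and 1790.4 FPKM, against 846, 814 and 846 FPKM and 756, 795 and 783 FPKM. Every IL-6 library was above every IL-10 and every NC library for each chain.

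On the log2(FPKM + 1) scale, IL-6 against IL-10 at 3 h raised FGA by 0.87 (SE 0.0436, limma adjusted p = 4.37e-12), FGB by 1.15 (SE 0.0412, adjusted p = 2.08e-14) and FGG by 0.90 (SE 0.0412, adjusted p = 1.19e-12). At 6 h the rises were 1.08 (adjusted p = 9.35e-14), 1.33 (adjusted p = 9.10e-16) and 1.13 (adjusted p = 1.43e-14). As folds these were 1.83 (95% interval 1.72 to 1.95), 2.22 (2.09 to 2.36) and 1.86 (1.76 to 1.98) at 3 h, and 2.11 (1.99 to 2.25), 2.51 (2.37 to 2.66) and 2.19 (2.07 to 2.33) at 6 h. Of all 11280 genes tested, 22.8% were called against IL-10 at 3 h (12% higher) and 23.6% at 6 h (14.4% higher). Of the calls at 6 h, 60.7% were higher, and 37.6% with scaling to total reads. By size of rise, FGB ranked 22nd of all genes at both hours, FGA 49th and then 34th, and FGG 46th and then 33rd. Without the IL-6 library that stood apart, the 3 h rises were 0.92, 1.14 and 0.93.

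Against NC, IL-6 raised FGA by 1.02 at 3 h and 1.08 at 6 h, FGB by 1.25 and 1.39, and FGG by 1.09 and 1.22 (adjusted p at most 2.09e-13). Without the library that stood apart, the 3 h rises were 1.06, 1.24 and 1.11. Of all genes, 33.9% were called in that comparison at 3 h (14.5% higher) and 19.4% at 6 h (7.59% higher). From 3 h to 6 h of IL-6, FGB rose by 0.14 (adjusted p = 0.0188) and FGG by 0.13 (adjusted p = 0.0232), where 23.5% of genes were called (11.3% higher), and FGA differed by 0.066 (adjusted p = 0.297). The 6 h libraries of FGG overlapped those of 3 h, and without the library that stood apart FGG differed by 0.11 (adjusted p = 0.104), FGB rose by 0.15 (adjusted p = 0.0288) and FGA differed by 0.021 (adjusted p = 0.798). Set against the change in IL-10 over the same hours, the effect of IL-6 on FGG was larger at 6 h by 0.24 (SE 0.0583, adjusted p = 0.0491). This difference of effects was 0.21 for FGA (adjusted p = 0.0870) and 0.18 for FGB (adjusted p = 0.112), and 1.39% of genes were called (0.762% higher). Of those calls 54.8% were higher, and 23.5% with scaling to total reads. Without any 1 of 11 of the 12 libraries concerned (all but IL-6 3 h replicate 1), the FGG difference no longer passed (limma adjusted p up to 0.104). Over all 12 omissions, the passing one included, the FGG difference was 0.20 to 0.28. Without IL-6 3 h replicate 3, the library that stood apart, the differences of effects were 0.16 for FGA, 0.19 for FGB and 0.21 for FGG (adjusted p = 0.207, 0.150 and 0.0951). The summed hepatocyte markers were 15698 to 17783 FPKM in IL-6 3 h and 16493 to 17337 in IL-10 3 h. At 6 h they were lower with IL-6, at 15653 to 16067 FPKM against 16333 to 17141. The summed colon markers, nearly all VIL1 and LGR5, were lower with IL-6 at both hours, at 71.0 to 75.4 FPKM against 81.4 to 83.4 at 3 h and 74.6 to 79.1 against 81.1 to 83.8 at 6 h. The summed blood markers, nearly all LYZ, were lower at 3 h (1161 to 1289 FPKM against 1362 to 1473) and overlapped at 6 h. The part of these markers in the result was not tested.

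**Figure D2:**
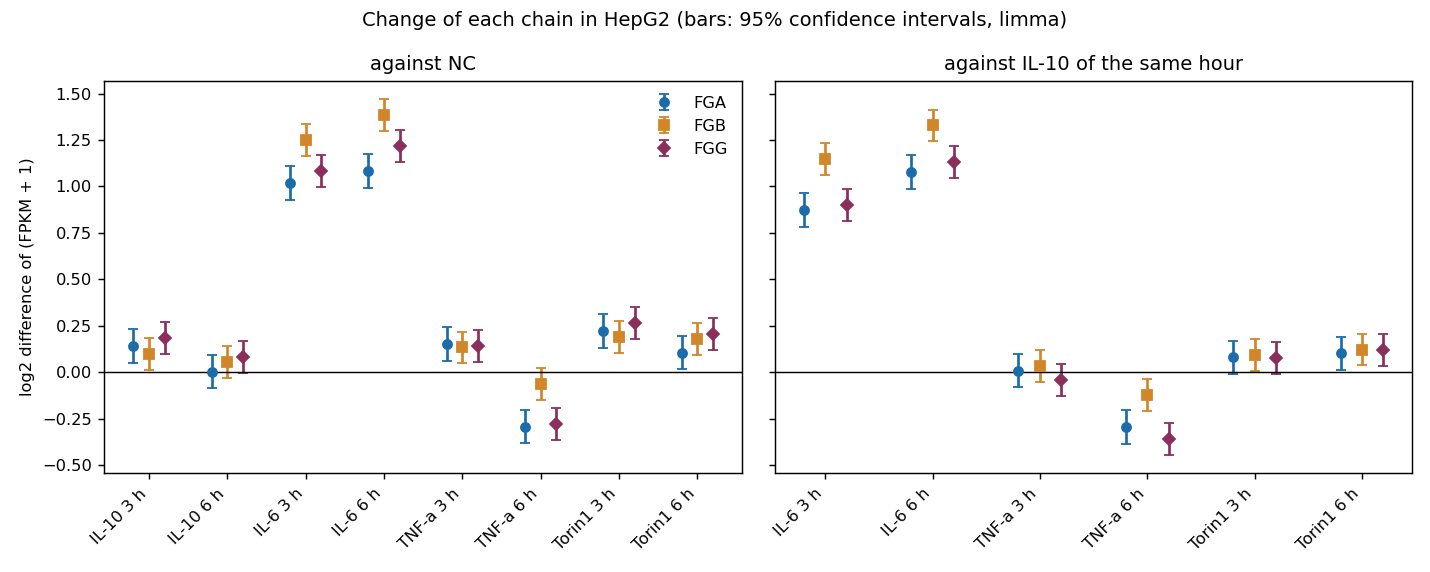
Log2 difference of (FPKM + 1) of FGA, FGB and FGG against NC (left) and against IL-10 of the same hour (right), with limma 95% confidence intervals. The IL-6 points lie from 0.87 to 1.39 with FGB highest, TNF-α 6 h points lie below 0 and Torin1 points lie between 0.08 and 0.26.

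The rises were unequal, so the proportion of the chains shifted toward FGB. In IL-6 libraries FGB reached 0.463, 0.478 and 0.529 times FGA at 3 h and 0.511, 0.511 and 0.520 times at 6 h. In IL-10 the ratio was 0.421, 0.389 and 0.401 at 3 h and 0.428, 0.444 and 0.425 at 6 h. All IL-6 libraries were above all IL-10 libraries in this ratio. Over both hours the log2 ratio was 0.26 higher with IL-6 (exact permutation test within hours, two-sided, p = 0.005, the smallest of 400 arrangements can give; 0.0225 adjusted over 9 ratio tests). The log2 ratio of FGG to FGB was lower by the same test (difference -0.22, exact p = 0.005, adjusted 0.0225), and that of FGG to FGA differed by 0.039 (exact p = 0.075, adjusted 0.112). Without the library that stood apart, these differences were 0.23 (adjusted 0.0225, exact permutation), -0.20 (adjusted 0.0225) and 0.030 (adjusted 0.247). A single hour, with 3 libraries against 3, cannot give an exact p below 0.1. FGB made up 14.6% to 18.3% of the summed FPKM of the chains over all 27 libraries, FGA 34.1% to 38.0% and FGG 46.1% to 48.8%.

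TNF-α left the chains near IL-10 at 3 h and lowered them at 6 h. FGA stood at 659, 642 and 634 FPKM at 3 h and 461, 464 and 495 FPKM at 6 h. FGB stood at 268, 253 and 275 FPKM and then 233, 223 and 237 FPKM, and FGG at 808, 803 and 821 FPKM and then 594, 595 and 629 FPKM. At 6 h every TNF-α library was below every IL-10 6 h and every NC library for each chain, and at 3 h the TNF-α and IL-10 libraries overlapped.

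Against IL-10 at 6 h, where 34.8% of genes were called (15.9% lower), FGA fell by 0.30 on the log2 scale (SE 0.0436, limma adjusted p = 1.90e-05), FGG fell by 0.36 (SE 0.0412, adjusted p = 7.52e-07) and FGB fell by 0.12 (SE 0.0412, adjusted p = 0.0272). Of those calls 54.2% were higher, and 40.4% with scaling to total reads. The levels were 0.815 times (95% interval 0.765 to 0.868), 0.779 times (0.734 to 0.827) and 0.920 times (0.867 to 0.976) those in IL-10 for FGA, FGG and FGB. The FGB difference was -0.14 to -0.096 when 1 library was left out, and it no longer passed without IL-10 6 h replicate 2 or TNF-α 6 h replicate 2 (adjusted p up to 0.118). At 3 h, where 16.1% were called, the differences from IL-10 were 0.010 for FGA (95% interval -0.081 to 0.10, adjusted p = 0.910), 0.036 for FGB (-0.049 to 0.12, adjusted p = 0.618) and -0.043 for FGG (-0.13 to 0.043, adjusted p = 0.550).

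Between 3 h and 6 h of TNF-α, where 25.4% of genes were called (13.4% lower; 47.3% of the calls were higher, and 65.0% with scaling to total reads), FGA fell by 0.45 (adjusted p = 1.46e-07), FGG fell by 0.42 (adjusted p = 1.47e-07) and FGB fell by 0.20 (adjusted p = 0.00124). The effect against IL-10 was lower at 6 h than at 3 h for FGA (difference -0.31, SE 0.0617, adjusted p = 0.00619) and FGG (-0.32, SE 0.0583, adjusted p = 0.0030), in a test that called 4.13% of genes (2.02% lower), while the difference for FGB was -0.16 (adjusted p = 0.154). Against NC, the chains rose at 3 h by 0.15, 0.13 and 0.14 for FGA, FGB and FGG (adjusted p = 0.01, 0.0168 and 0.0106), where 29.7% of genes were called (12.8% higher, which is 43.2% of the calls, and 28.9% of them with scaling to total reads). At 6 h FGA fell by 0.29 (adjusted p = 3.32e-05) and FGG fell by 0.28 (adjusted p = 3.19e-05), where 28.7% were called (16.8% lower), and FGB differed by -0.063 (adjusted p = 0.270). The summed hepatocyte markers were also lower in TNF-α 6 h, at 15172 to 15711 FPKM, than in IL-10 6 h, at 16333 to 17141 FPKM. In bulk libraries fewer cells of a kind and less RNA per cell cannot be told apart.

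TNF-α and IL-6 shared no libraries and were compared directly. At 3 h the TNF-α libraries lay below the IL-6 libraries by log2 differences of -0.86 for FGA, -1.11 for FGB and -0.94 for FGG (adjusted p at most 3.20e-12), where 15.9% of genes were called (7.43% lower). Of those calls 53.3% were higher, and 39.5% with scaling to total reads. Without the IL-6 library that stood apart, the chain differences were -0.91, -1.10 and -0.97. At 6 h the differences were -1.38, -1.45 and -1.49 (adjusted p at most 8.01e-16), where 23.1% were called (11.8% lower), and FGG was 0.355 times its level in IL-6. FGG fell relative to the other chains with TNF-α: against IL-10 the log2 ratio of FGG to FGB differed by -0.16 (exact permutation p = 0.01, adjusted 0.03) and that of FGG to FGA by -0.059 (exact p = 0.015, adjusted 0.0338). The latter no longer passed without any 1 of 7 of the 12 libraries (exact permutation, adjusted p up to 0.072). Over all 12 omissions the difference in FGG to FGA was -0.069 to -0.049. The ratio of FGB to FGA differed by 0.10 (exact p = 0.03, adjusted 0.054). It was 0.406, 0.394 and 0.433 in the TNF-α 3 h libraries and 0.506, 0.481 and 0.478 at 6 h, so only the 6 h libraries lay above all IL-10 libraries. The difference in FGB to FGA was 0.026 at 3 h and 0.18 at 6 h, and that in FGG to FGB -0.079 and -0.24.

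**Figure D3:**
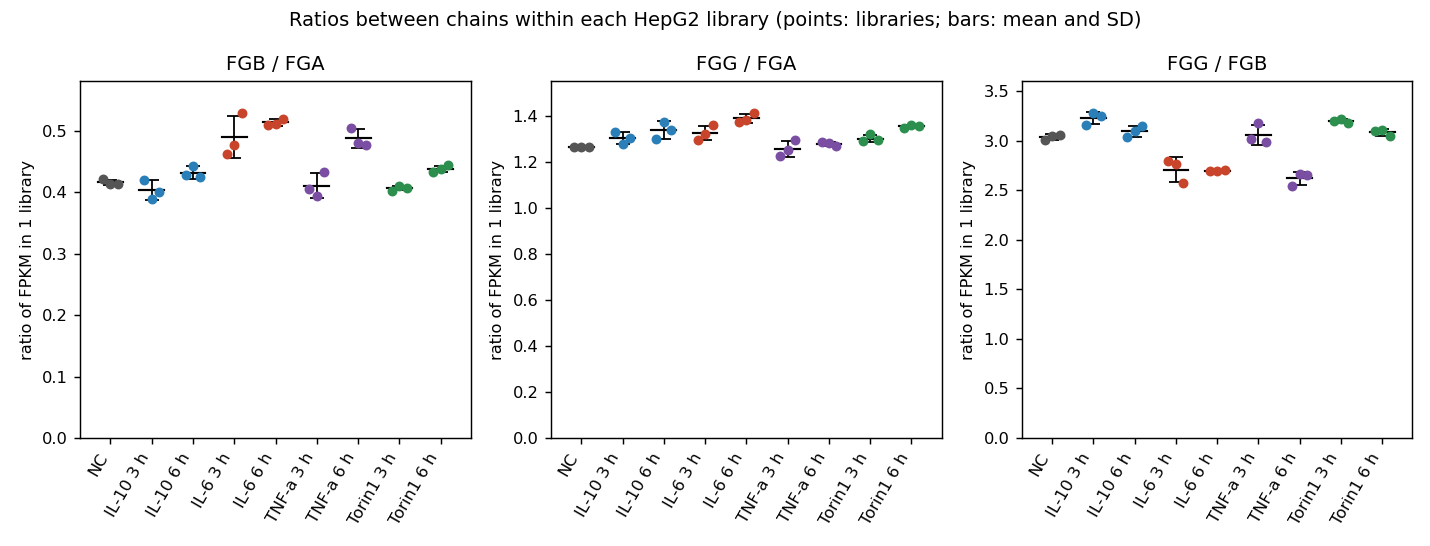
Ratios of FPKM between chains in each HepG2 library (axes from 0); points are libraries, bars the mean and SD of 3. FGB relative to FGA is 0.463 to 0.529 in both IL-6 groups and 0.478 to 0.506 in TNF-α 6 h, against 0.389 to 0.444 in the IL-10 groups.

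Torin1 libraries lay slightly above the references for every chain. FGA stood at 709, 656 and 668 FPKM at 3 h and 599, 656 and 619 FPKM at 6 h, FGB at 286, 269 and 272 FPKM and then 259.7, 287 and 275 FPKM, and FGG at 915, 866 and 864 FPKM and then 806, 893 and 838 FPKM. Every Torin1 library was above every IL-10 library of its hour for each chain. Against IL-10 at 3 h the differences were 0.080 (95% interval -0.010 to 0.17, adjusted p = 0.141), 0.092 (0.0065 to 0.18, adjusted p = 0.0737) and 0.077 (-0.0085 to 0.16, adjusted p = 0.134) for FGA, FGB and FGG, none passing where 45.5% of genes were called. At 6 h, where 59% of genes were called (28.7% higher), FGA rose by 0.10 (adjusted p = 0.04997), FGB by 0.12 (adjusted p = 0.0142) and FGG by 0.12 (adjusted p = 0.0169). Of those calls 48.7% were higher, and 38.7% with scaling to total reads. Marker sums moved in the same libraries: at 6 h the blood list stood at 1589 to 1699 FPKM against 1400.1 to 1408 in IL-10, the colon list at 94.7 to 97.9 against 81.1 to 83.8 and the hepatocyte list at 15778 to 16283 against 16333 to 17141. At 3 h the colon list stood at 91.8 to 92.6 against 81.4 to 83.4, and the blood and hepatocyte lists overlapped. Their part in the result was not tested. With scaling to total reads none of these 6 h rises passed (0.048, 0.069 and 0.065, adjusted p = 0.252, 0.113 and 0.102), and without Torin1 6 h replicate 2 none passed either (0.066, 0.089 and 0.080).

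Torin1 3 h stood above NC by 0.22, 0.19 and 0.26 for FGA, FGB and FGG (limma adjusted p at most 0.000718, 45.5% of genes called, 19.4% higher). IL-10 3 h stood above NC by 0.14, 0.098 and 0.19, and NC has no hour, so Torin1 was not tested apart from time or handling. Torin1 6 h stood above NC by 0.11, 0.18 and 0.20 (adjusted p = 0.0401, 0.000735 and 0.000222, 59.9% called, 26.1% higher). The effect against IL-10 did not differ detectably between the hours (0.022, 0.031 and 0.042, adjusted p at least 0.683, 20.9% called). From 3 h to 6 h FGA fell by 0.12 (adjusted p = 0.0398, 36.4% called, 19.3% lower), with overlapping libraries, and FGB and FGG differed by -0.0098 and -0.060. The 3 ratios between chains differed from IL-10 by at most 0.016 log2 in either direction (exact permutation, adjusted p at least 0.506).

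In IL-10 3 h, FGA was 0.14 (limma adjusted p = 0.0248) and FGG 0.19 (adjusted p = 0.00297) above NC, and FGB differed by 0.098 (adjusted p = 0.106). TNF-α 3 h and Torin1 3 h also stood above NC for each chain. NC has no hour, so IL-10 was not tested apart from time or handling. In IL-10 3 h against NC, 19.1% of genes were called (7.17% higher). Of those calls 37.6% were higher, and 51.4% with scaling to the median. At 6 h, where 11.7% were called, the differences were 0.0047 (95% interval -0.086 to 0.096), 0.057 (-0.028 to 0.14) and 0.085 (-0.0012 to 0.17) for FGA, FGB and FGG. The libraries of IL-10 3 h were above all NC libraries for each chain. From 3 h to 6 h of IL-10, FGA fell by 0.14 (adjusted p = 0.0328, 16% of genes called, 9.57% lower), and FGB and FGG differed by -0.041 and -0.10 (adjusted p = 0.560 and 0.101). Of those calls 40.2% were higher, and 65.3% with scaling to total reads. The FGA rise against NC was 0.13 to 0.15 when 1 library was left out and still passed without IL-10 3 h replicate 1, not without any other of the 6. The FGA fall from 3 h to 6 h failed to pass without any 1 of its 6 libraries (-0.15 to -0.13). The IL-10 receptor gene IL10RA stood at 0 to 0.0136 FPKM and IL10RB at 0.00612 to 0.0682 FPKM in the 27 libraries. All rises against NC share the same 3 NC libraries, and all values against IL-10 share its libraries of that hour.

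Other genes of the IL-6 pathway moved in the same libraries. Of 20 listed receptors, kinases, targets and feedback genes, all tested, SOCS3 and CISH passed the filter on low values only through the IL-6 libraries, which fixed their direction, and are left out of the IL-6 counts. Of the other 18, 12 rose and 1 fell with IL-6 against IL-10 at 3 h (median log2 0.26, all genes -0.0013), where 22.8% of all genes were called, and 12 rose and 1 fell at 6 h (median 0.42, all genes 0.011), where 23.6% were called. As a description, SOCS3, the feedback inhibitor of the receptor kinases, went from 0.199 ± 0.0272 to 3.58 ± 0.875 FPKM at 3 h (log2 1.92) and from 0.0672 ± 0.0686 to 8.61 ± 0.394 FPKM at 6 h (log2 3.17). STAT3 rose by 0.83 and 0.86, and IL6ST by 0.50 and 0.48. IL6R rose by 0.28 at 3 h and differed by 0.057 at 6 h (adjusted p = 0.549). CEBPD rose by 1.18 and 1.69, and CEBPB differed by 0.040 at 3 h (adjusted p = 0.631) and rose by 0.27 at 6 h.

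The list of 20 with TNF-α had 8 rises and no fall at 3 h (median 0.092, all genes -0.0039, 16.1% of genes called) and 12 rises and 1 fall at 6 h (median 0.23, all genes -0.0031, 34.8% called), the largest in IRF1 (1.16 and 1.13) and BCL3 (0.90 and 0.97). SOCS3 differed by 0.075 (adjusted p = 0.634) and 0.15 (adjusted p = 0.199) and STAT3 by 0.0073 and 0.020. IL6ST rose by 0.23 and 0.43, and IL6R differed by -0.12 at 3 h (adjusted p = 0.183) and fell by 0.43 at 6 h. CEBPD rose by 0.66 and 0.74, while CEBPB differed by -0.049 at 3 h (adjusted p = 0.597) and rose by 0.14 at 6 h. With Torin1 the list had 4 rises and 8 falls at 3 h (median -0.046, all genes -0.018) and 5 and 7 at 6 h (median 0.023, all genes -0.014), beside 45.5% and 59% of all genes called. PIM1, a kinase gene and STAT target, rose by 2.04 and 2.62, and IL6R by 0.36 and 0.60.

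Among 16 transcription factors known at fibrinogen promoters in liver, 4 rose and 3 fell with IL-6 at 3 h (median -0.022, all genes -0.0013) and 5 rose and 3 fell at 6 h (median 0.081, all genes 0.011), beside 22.8% and 23.6% of all genes called, CEBPD and STAT3 leading in both. HNF4A, a master regulator of hepatocyte genes, fell by 0.40 and 0.36, and CEBPA by 0.51 at 6 h. With TNF-α at 6 h, 5 rose and 6 fell (median 0.0056, all genes -0.0031), beside 34.8% of all genes called. CEBPA fell by 1.08, from 46.1 ± 2.08 to 21.3 ± 1.66 FPKM, and HNF4A by 0.50, from 37.9 ± 1.14 to 26.5 ± 1.2 FPKM, while NFKB1 rose by 0.94.

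Other positive acute phase genes rose with IL-6 in the same libraries, HP and SERPINA3 by more than any chain at 6 h. Of 25 listed, 20 were tested, and LBP and LCN2 passed the filter only through the IL-6 libraries and are left out of the IL-6 counts. Of the other 18, 12 rose and none fell with IL-6 against IL-10 at 3 h (median 0.22, all genes -0.0013, 22.8% called) and 14 and none at 6 h (median 0.36, all genes 0.011, 23.6% called). Haptoglobin (HP), which binds free haemoglobin, went from 27.5 ± 0.664 to 131 ± 8.69 FPKM at 3 h and from 26.1 ± 2.77 to 192 ± 0.323 FPKM at 6 h. The protease inhibitor SERPINA3 rose by 1.86 and 2.20, and SERPING1, the C1 inhibitor, by 1.11 at 3 h. As a description, the lipopolysaccharide-binding protein LBP had group means of at most 0.0198 FPKM in IL-10 and of 2.77 ± 0.763 and 2.76 ± 0.249 FPKM in IL-6, and LCN2 stood at 0.0226 ± 0.0200 and 2.39 ± 0.106 FPKM at 6 h. With TNF-α at 6 h, 4 rose and 4 fell (median -0.036, all genes -0.0031, 34.8% called): SERPINA3 rose by 0.82 and ORM2 by 0.31, and HAMP (hepcidin) fell by 1.43 and C4BPB by 0.33. With Torin1 at 6 h, 5 rose and 2 fell (median 0.031, all genes -0.014, 59% called), with IL1RN up by 1.56 and HP down (log2 -0.57).

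**Figure D4:**
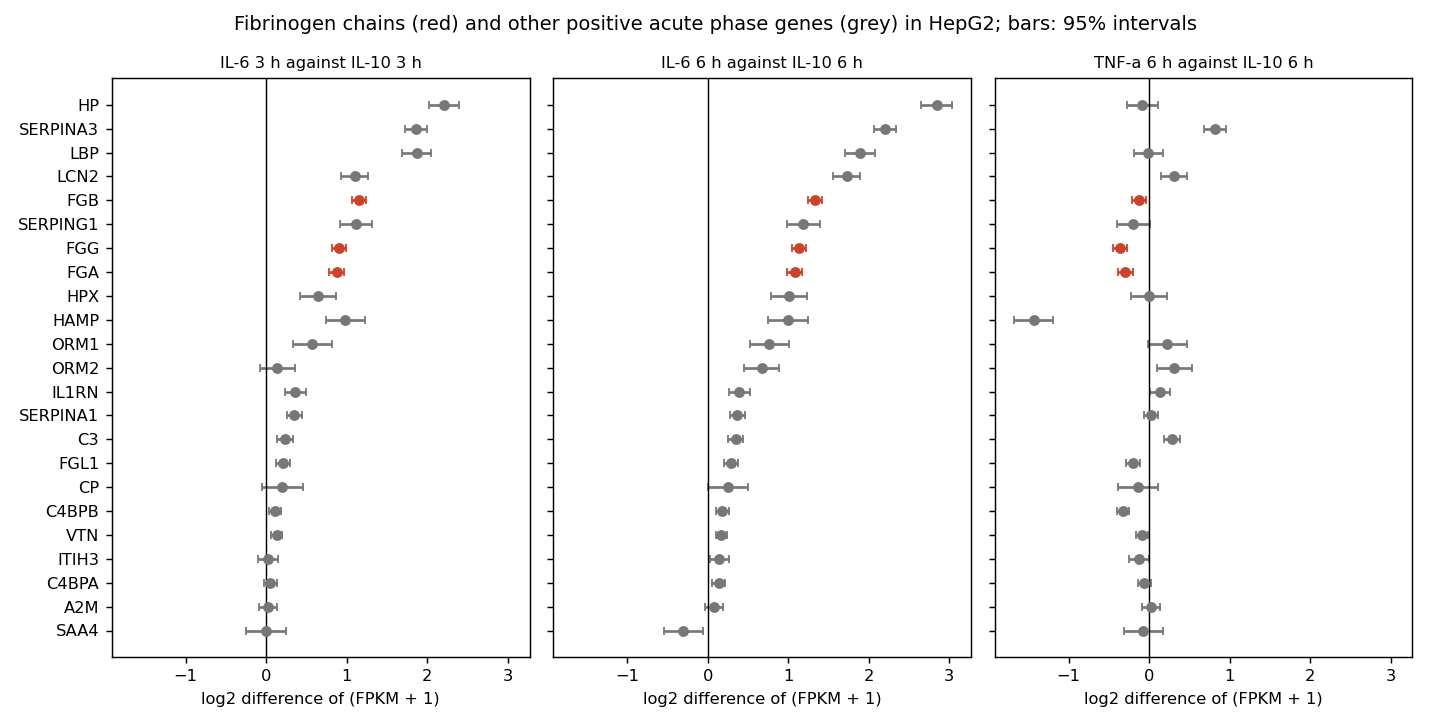
Log2 difference of (FPKM + 1) with limma 95% intervals for the 3 chains (red) and 20 other positive acute phase genes (grey) in 3 comparisons, ordered by IL-6 at 6 h; LBP and LCN2 passed the filter only through IL-6. With IL-6 at 6 h FGB (1.33), FGG (1.13) and FGA (1.08) lie below HP (2.84) and SERPINA3 (2.20), and with TNF-α at 6 h the chains lie below 0 while SERPINA3 (0.82) lies above.

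Negative acute phase proteins, whose plasma level falls in inflammation, gave 4 falls and no rise of 10 with IL-6 at 3 h (median -0.18, all genes -0.0013, 22.8% called), among them TTR (log2 -0.39) and APOC3 (log2 -0.38), and 2 falls and no rise at 6 h (median -0.092, all genes 0.011, 23.6% called). Other coagulation and fibrinolysis genes were counted in the same way. Of 28 listed, 21 were tested, and with IL-6 2 rose and 1 fell at 3 h (median -0.052, all genes -0.0013, 22.8% called) and 2 rose and 5 fell at 6 h (median -0.072, all genes 0.011, 23.6% called). PROS1, the anticoagulant protein S, rose by 0.26 and 0.33, and CPB2, an inhibitor of fibrinolysis, fell by 0.20 and 0.40. With TNF-α at 6 h, 5 rose and 11 fell (median -0.11, all genes -0.0031, 34.8% called), with the urokinase gene PLAU up by 2.06, and CPB2 and F7 down (log2 -0.36 and -0.32).

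Fibrinogen chains are folded, joined and exported by the endoplasmic reticulum. Of 20 listed endoplasmic reticulum genes, all tested, 6 rose with IL-6 at 3 h (median 0.067, all genes -0.0013, 22.8% called) and 12 at 6 h (median 0.11, all genes 0.011, 23.6% called), and none fell at either hour. The chaperone gene HSPA5 went from 358 ± 6.21 to 423.5 ± 6.48 FPKM at 6 h and DNAJB9 rose by 0.71 and 0.55. With Torin1 at 6 h, 2 rose and 12 fell (median -0.11, all genes -0.014, 59% of all genes called), with HSPA5 down (log2 -0.39) and DNAJB9 down (log2 -0.69), in libraries where FGB and FGG stood 0.12 above IL-10.

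Genes next to the locus were read beside the chains. Of 8 listed, only PLRG1, a splicing factor gene 12.6 kb from the cluster, was tested, and it stood at 20.4 to 23.4 FPKM in all libraries. With IL-6 against IL-10 PLRG1 differed by -0.024 at 3 h (adjusted p = 0.647) and -0.050 at 6 h (adjusted p = 0.286), and with TNF-α at 6 h it fell by 0.13 (adjusted p = 0.00290). TLR2 reached at most 0.303 FPKM, and RNF175, SFRP2, DCHS2 and LRAT at most 0.00752 FPKM. RBM46 and NPY2R were listed at 0 in every library.

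Across the 9 group means the chains moved together (Pearson r 0.98 for FGA and FGB, 0.997 for FGA and FGG, 0.982 for FGB and FGG, n = 9). Deviations of the 27 libraries from their group mean also ran in parallel, with r of 0.55, 0.874 and 0.78 in the same order. These values describe libraries that share their scaling and depth.

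In HCT116, a line of colon and not liver origin, all chains were near 0: FGA at 0.0488 to 0.539 FPKM (9 to 121 reads), FGB at 0.0454 to 0.295 FPKM (8 to 62 reads) and FGG at 0.0959 to 0.649 FPKM (10 to 72 reads). As a share of the HepG2 NC mean, the medians were 0.0226%, 0.0378% and 0.0280%. Among other liver mRNAs the median share was 0.0228% for ALB, 0.0205% for AFP, 0.0278% for APOA1, 0.0228% for TF, 0.0225% for AHSG and 0.0196% for APOH. SERPINA1 stood at 0.0429%, TTR at a median of 0 and HNF4A at 2.34%. Over the 27 libraries the share of each chain ran with that of albumin (Pearson r 0.881 for FGA, 0.64 for FGB and 0.913 for FGG), measured on few reads in libraries that share depth. HCT116 given IL-6 for 6 h had FGA at 0.103, 0.131 and 0.136 FPKM, and HCT116 NC had 0.184, 0.0870 and 0.186 FPKM. The libraries of these groups overlapped, and FGA was highest in the TNF-α 3 h replicate 1 library, where ALB and AFP were highest too.

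**Figure D5:**
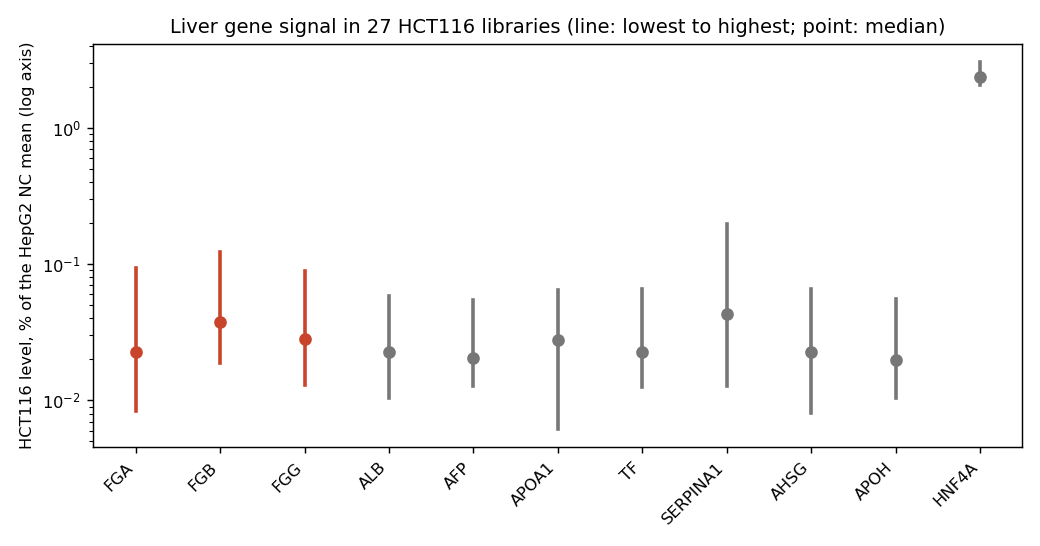
Level of each chain (red) and of other liver genes (grey) in 27 HCT116 libraries, as a percent of the HepG2 NC mean on a log axis; lines run from the lowest to the highest library and points are medians. The chains have medians of 0.0226% to 0.0378%, beside 0.0228% for ALB and 2.34% for HNF4A.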

How the data were processed

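Per the labels' protocols, poly(A) RNA was made into paired-end libraries and read on an MGI instrument. The authors deposited FPKM values in a single table of 50037 gene entries and 54 library columns. The submitters' processing notes name FastQC, HISAT2, StringTie, DESeq2 and GRCh38; versions, settings and which tool gave the FPKM are not given in the sources used here. Its 48 columns of 16 unnamed comparisons were not used. A Torin1 recovery group was not analysed here.

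Whole reads were recovered from the steps between low values for 36451 of 36451 genes above 0 (100%, tolerance 0.01 read). The deposited values were already scaled between libraries: the library sizes behind them followed median-of-ratios factors of those reads (ratio 0.9992 to 1.0017 in HepG2). A value of 0 can be a failed estimate and is written as listed at 0. Reads without molecular identifiers are not independent molecules.

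The 27 HepG2 libraries were fitted together with limma 3.58.1 (R 4.3.3; eBayes, trend = TRUE) on log2(FPKM + 1), with 1 mean per group and no covariate. Tested were the 11280 genes that reached 1 FPKM in 3 or more libraries. In each of 23 comparisons, calls were made where the p-value, adjusted over all genes by Benjamini-Hochberg, was under 0.05. Differences of effects were contrasts of 4 groups. Ratios between chains were tested by exact permutation of libraries within each hour (scipy 1.17.1). Folds are on the log2(FPKM + 1) scale, which understates low genes. The fit was also run on simulated data with 200 changed genes and the same spread beyond counting noise for every gene. That run was a check of the code and does not measure errors in these libraries. The labels speak of replicates and do not name separate cultures, so a p-value here reflects only how far such libraries differ, which may be technical. The replicate numbers were not taken to pair libraries across groups, since nothing in the labels ties them. Of 108 same-number correlations 4 passed 0.1, yet 17 of 27 libraries correlated best with their own number. These values do not decide whether the numbers are shared. Members, gene lists, tests and motifs were chosen with earlier results of these data, or the sequences, known. Named from each list and comparison were at most the 4 called genes with the largest change, and always the chains, the neighbours, SOCS3, STAT3, CEBPB, CEBPD, IL6R and IL6ST; 1 gene that this rule names is not reported here. Alternatives covered the pseudocount, filter, scaling, replicate block, voom on recovered reads, the groups in the fit and each left-out library; transcript lengths, and list counts without genes that passed the filter only through 1 treatment, were added after seeing the data.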

Additional observations from a re-analysis of the deposited data

Results flagged for a closer look

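The effect of TNF-α against IL-10 differed between the hours for FGA (log2 -0.31) and FGG (-0.32), by a direct test of the difference: neither chain differed detectably at 3 h and both fell at 6 h. The effect of IL-6 against IL-10 on FGG was larger at 6 h than at 3 h by 0.24, and this call rested on nearly every library.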

How the results depend on the processing

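Of 78 results on the chains (69 changes and 9 ratios), 59 were unchanged under every alternative run, and no called result reversed. Unchanged meant the same side of the threshold. For a ratio in a single hour it meant a shift smaller than the SD of libraries around their group means. The TNF-α ratio of FGG to FGB was counted as changed only through its single hours. All IL-6 rises against NC and IL-10 were among these 59. Some differences that were not called changed sign, such as FGA with TNF-α against IL-10 at 3 h (-0.0057 to 0.022 when 1 library was left out). Changing the pseudocount to 0.1 or using voom on recovered reads changed no call.

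With no filter on low values (31844 genes tested), calls were lost for FGA with IL-10 3 h (0.14) and Torin1 6 h (0.11) against NC, FGB with TNF-α 6 h (-0.12) and FGA (0.10) and FGG (0.12) with Torin1 6 h against IL-10, from 3 h to 6 h for FGA with IL-10 (-0.14) and Torin1 (-0.12) and FGG with IL-6 (0.13), and for the later IL-6 effect on FGG (0.24). With scaling to total reads, calls were lost for FGB with TNF-α 3 h against NC (0.092), FGA, FGB and FGG with Torin1 6 h against IL-10 (0.048, 0.069 and 0.065) and FGA with IL-10 from 3 h to 6 h (-0.092), and FGG with IL-10 6 h against NC passed (0.12). With scaling to the median, the Torin1 6 h rises against IL-10 (0.073, 0.093 and 0.090) and the later IL-6 effect on FGG (0.23) no longer passed. With only the groups compared in the fit, calls were lost for FGA (0.10) and FGG (0.12) with Torin1 6 h against IL-10, FGB (0.14) and FGG (0.13) with IL-6 and FGA with Torin1 (-0.12) from 3 h to 6 h, and the later IL-6 effect on FGG (0.24); this fit has fewer samples. With the replicate number as a block, the FGA rise with Torin1 6 h against IL-10 (0.10, adjusted p = 0.0601) was the single call lost. Same-number libraries of different groups correlated by -0.139 to 0.119 (median 0.0125), and 17 of 27 libraries correlated best with their own number, a hint from the data, not the design, that numbers may be shared. By hour, the TNF-α difference in FGB to FGA was 0.026 at 3 h and 0.18 at 6 h, and in FGG to FGB -0.079 and -0.24. The cause of each lost call was not tested.

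Leaving out 1 library gave, where a call changed, ranges of 0.13 to 0.15 (FGA, IL-10 3 h against NC), 0.071 to 0.14 (FGA, Torin1 6 h against NC) and 0.11 to 0.17 (FGB, TNF-α 3 h against NC). Against IL-10 they were -0.14 to -0.096 (FGB, TNF-α 6 h), 0.064 to 0.12 (FGB, Torin1 3 h), and 0.066 to 0.13, 0.089 to 0.16 and 0.080 to 0.15 (FGA, FGB and FGG, Torin1 6 h). From 3 h to 6 h they were -0.15 to -0.13 (FGA, IL-10), 0.021 to 0.13, 0.11 to 0.16 and 0.099 to 0.18 (FGA, FGB and FGG, IL-6), and -0.15 to -0.085 (FGA, Torin1). The later IL-6 effect ranged from 0.16 to 0.27 for FGA and 0.20 to 0.28 for FGG, and the TNF-α differences from 0.082 to 0.12 (FGB to FGA) and -0.069 to -0.049 (FGG to FGA). FGA passed between 6 h and 3 h of IL-6 (0.13, adjusted p = 0.0256) and in its later IL-6 effect (0.27, adjusted p = 0.0111) without IL-6 3 h replicate 1, FGB with Torin1 3 h against IL-10 without IL-10 3 h replicate 1, and the later FGG effect held without IL-6 3 h replicate 1 alone. Calls were lost for FGB with TNF-α 3 h against NC without NC replicate 2 or TNF-α 3 h replicates 1 or 3, for IL-6 from 3 h to 6 h without IL-6 3 h replicate 2 or IL-6 6 h replicate 3 (FGB and FGG) or IL-6 3 h replicate 3 (FGG), for FGG with Torin1 6 h against IL-10 also without IL-10 6 h replicate 1, and for FGA with Torin1 6 h without 5 of 6 libraries against NC (all but Torin1 6 h replicate 1) and against IL-10 (the same). FGA with Torin1 from 3 h to 6 h was lost without replicates 1 or 3 of either hour. TNF-α FGB to FGA passed without IL-10 3 h replicate 1 or TNF-α 3 h replicate 2, and FGG to FGA was lost without replicates 1 or 3 of IL-10 3 h, 1 or 2 of TNF-α 3 h or any of TNF-α 6 h.

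Counts of called genes moved by over 1.5 times in some settings. With only the compared groups they went from 2575 to 459 (IL-6 against IL-10, 3 h), 3827 to 2221 (IL-6 3 h against NC), 2649 to 930 (IL-6, 6 h against 3 h), 1817 to 770 (TNF-α against IL-10, 3 h), 1794 to 591 (TNF-α against IL-6, 3 h), 2149 to 1364 (IL-10 3 h against NC), 1805 to 1020 (IL-10, 6 h against 3 h), 157 to 13 (later IL-6 effect) and 466 to 251 (later TNF-α effect). With no filter the last pair became 63 and 303. IL-10 6 h against NC went from 1317 to 782 with total reads and 876 with the median, and the later IL-6 effect to 259 with total reads. Leaving out 1 library gave 552 to 1044, 1407 to 1901, 54 to 434 and 281 to 512 for IL-10 6 h and 3 h against NC and the later IL-6 and TNF-α effects, with the lowest without NC replicate 2, IL-10 3 h replicate 2, IL-10 6 h replicate 3 and TNF-α 6 h replicate 1 in that order, and the 434 without IL-6 3 h replicate 1. With transcript lengths, added after seeing the data, the NC level was 1009.8 or 617 for FGA, 449 for FGB and 932 or 878 for FGG, in place of 579.5, 241 and 733.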

Other observations

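Genes whose 9 group means ran most like those of the chains were taken from 3039 tested genes that spanned at least 0.5 log2. By the mean of the 3 Pearson correlations they were SERPINB1 (0.978), C6 (0.976), B3GNT3 (0.965), SERPING1 (0.965) and LBP (0.962). SERPINB1, an inhibitor of neutrophil proteases, stood at 16.6 ± 0.61 FPKM in NC, 30.4 ± 3.28 in IL-6 3 h, 29.4 ± 1.02 in IL-6 6 h and 15.7 ± 0.844 in TNF-α 6 h. The most opposite were SNORD7 (-0.863), LOC124909447 (-0.844) and ACSM3 (-0.825). ACSM3, a medium-chain acyl-CoA synthetase, stood at 4.49 ± 0.0603 FPKM in NC, 2.92 ± 0.178 in IL-6 3 h, 3.03 ± 0.222 in IL-6 6 h and 6.31 ± 0.549 in TNF-α 6 h. C6, B3GNT3 and LBP passed the filter on low values only through the IL-6 libraries, which fixed their likeness to chains that are high there, and SNORD7 reached 1 FPKM in no more than 3 libraries. These are descriptions over 9 group means, and the chains set the pattern.

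Of 20 genes with a fibrinogen-like domain, 3 were tested. FGL1, a liver-secreted relative of fibrinogen, stood at 155 ± 8.56 and 159.6 ± 3.01 FPKM in IL-10 at 3 h and 6 h. It rose with IL-6 against IL-10 by 0.21 at 3 h and 0.29 at 6 h and fell by 0.20 with TNF-α at 6 h (139 ± 4.79 FPKM). ANGPTL1, an angiopoietin-like gene, passed the filter only through Torin1 6 h, where it stood at 1.51 ± 0.161 FPKM against 0.199 ± 0.0501 in IL-10 6 h.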
